A study of Mus musculus with 6 samples.

Results

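Chromatin contacts of P19 cells after 48 h of all-trans retinoic acid (ATRA, 1e-06 M; T48) were compared with those of untreated cells (T0), in 2 Hi-C libraries a group. P19 is a mouse embryonal carcinoma line, a tumour-derived stem cell line that turns into neurons in culture when given retinoic acid. Both groups are the same line, and the labels give no genotype, transgene or sort. Another group of 2 libraries, at 6 h of ATRA (T6), entered only the alternatives that use all 6 libraries and, beside some windows, the number of listed pairs. There were no untreated cells at 48 h, so ATRA and time in culture cannot be told apart. Nothing in the labels tells if replicates came from different cultures, and p-values here reflect just the variation among these 4 libraries, which could be technical.

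Each measurement is the number of read pairs that join 2 bins of 5 kb on the same chromosome. The deposited list holds pairs that its submitters describe as significant and replicated. Of 3,654,014 pairs in the series, 3,443,020 lay on the 19 autosomes, 1,812,521 of them listed at T0 and 1,726,335 at T48. The T6 list was shorter, at 1,530,879 autosomal pairs. The 750,647 autosomal pairs with counts above 0 in all 4 libraries were used to compare strength. A pair that is not listed at a time point was not measured as absent, and the list has no replicate error because it was made per time point. Contact counts were compared between T48 and T0 within replicate number 1 and within replicate number 2. No value of this assay can check the treatment label itself.

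Contact frequency in Hi-C falls steeply with the distance between loci, because neighbouring segments of a chromosome meet more often than remote ones. Within this decay, loops held by CTCF and cohesin, contacts of enhancers with promoters, and the joining of silent or active domains raise the frequency of particular pairs. Retinoic acid binds nuclear receptors that sit on DNA as heterodimers with RXR, and in embryonal carcinoma cells it turns on Hox genes and shuts down the pluripotency network. The receptors recognise repeats of a half-site, 5′-AGGTCA-3′ or its reverse complement 5′-TGACCT-3′, and variants of it. Only the exact form was searched here.

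The promoters of Pou5f1 and Plxna2 are shown because the counts in windows around these genes differed from T0 in opposite directions. Pou5f1 encodes the pluripotency factor OCT4, and Plxna2 encodes plexin A2, a receptor for semaphorins that guides axons. Capitals mark the half-site, searched on both strands. The sequences are from RefSeq on build GRCm38.p6, whereas all contact coordinates are on mm9, and the sequences were not placed on mm9. They span 250 bases before to 50 after a transcript start. The first lies at chr17:35505782-35506081 and the second at chr1:194619579-194619878, both on the plus strand.
Pou5f1: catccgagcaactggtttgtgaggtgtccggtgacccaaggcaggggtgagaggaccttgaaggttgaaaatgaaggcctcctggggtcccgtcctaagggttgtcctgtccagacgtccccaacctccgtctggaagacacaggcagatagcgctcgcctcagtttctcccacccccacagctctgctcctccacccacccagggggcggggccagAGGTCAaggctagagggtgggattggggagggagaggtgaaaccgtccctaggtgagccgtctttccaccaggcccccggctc
Plxna2: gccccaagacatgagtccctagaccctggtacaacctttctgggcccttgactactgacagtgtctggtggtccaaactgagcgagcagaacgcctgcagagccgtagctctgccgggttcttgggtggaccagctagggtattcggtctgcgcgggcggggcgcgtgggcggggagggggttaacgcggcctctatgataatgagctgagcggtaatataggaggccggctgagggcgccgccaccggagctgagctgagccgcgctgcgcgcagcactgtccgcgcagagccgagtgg
The Pou5f1 promoter shown holds 1 half-site and the Plxna2 promoter none. The promoter of another Pou5f1 transcript start, at chr17:35508557-35508856, holds none, and neither do those of En1, Sufu and Cry2, loci with lower counts. Trim2, Nanog and Nr5a2, also loci with lower counts, each hold it at some transcript starts but not at others. The promoters of Hoxb1, Cyp26a1, Dhrs3 and Rarb hold none. No relation to the direction of change was tested, and none is read from these promoters. The half-site stood in 5,340 of 32,851 promoters of the same length (16.3%). A match is a run of letters and not a bound site, and a promoter without a match may hold a variant.

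Depth was 47,648,811 and 28,307,729 listed read pairs in T0 replicates 1 and 2, and 41,280,183 and 28,123,131 in T48 replicates 1 and 2. These sums cover listed autosomal pairs and are not the sequencing depth. The pairs listed at both times held 33,357,561, 19,253,962, 29,384,082 and 19,755,164 read pairs, in the same order. Their median count was 36, 22, 32 and 22, so a single pair was measured with few reads. The counts are not corrected for how well a bin is covered, so a change in coverage and a change in contact cannot be told apart.

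After 48 h the list held fewer pairs of 20 to 200 kb and more pairs above 500 kb. Pairs of 20 to 50 kb, the range of contacts within a gene and its close enhancers, numbered 312,965 at T0 and 251,926 at T48, a ratio of 0.805. Pairs of 1 to 2 Mb, which reach beyond most topological domains, numbered 34,751 and 51,929, a ratio of 1.49. Their median listed count was 3 in each of the 4 libraries, equal to the lowest count listed, so most lay at or near the floor of the list. The lists of pairs under 20 kb were nearly of equal length, at 477,157 and 479,729. Turnover rose with distance up to 2 Mb, since 81.6% of T0 pairs under 20 kb were listed again at T48, but 39.0% of those of 20 to 50 kb, 22.3% of 200 to 500 kb and 8.77% of 1 to 2 Mb, with 17.3% again kept at 2 to 10 Mb. Over all distances 41.4% of the T0 list was kept (95% Wilson interval 41.3 to 41.5%, counting error only).

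Pairs of at least 500 kb made up 11.2% of the T0 list and 14.8% of the T48 list (95% Wilson intervals 11.1 to 11.2% and 14.7 to 14.8%). The share was higher at T48 on each of 19 autosomes, and pairs of 20 to 50, 50 to 100 and 100 to 200 kb held a lower share on each of them. In read pairs, those of at least 500 kb held 0.824 percentage points more of the listed count at T48, 0.862 within replicate 1 and 0.785 within replicate 2. The groups overlapped in this share (exact permutation test, two-sided, p = 0.667), and 2 libraries against 2 cannot give a p under 0.333.

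Of the distance classes, 20 to 50 kb had the lowest SD of its share within each group, and this share was lower at T48. The share of read pairs in the 20 to 50 kb class was 15.9% and 16.05% at T0 and 13.2% and 13.4% at T48. The groups did not overlap, and the means were 15.99% ± 0.0858 at T0 and 13.3% ± 0.123 at T48 (SD, n = 2; exact permutation test, two-sided, p = 0.333, the smallest this design allows). At 50 to 100 kb the shares were 6.38% and 6.92% at T0 and 5.48% and 5.87% at T48, again without overlap. Between 1 and 2 Mb they were 0.318% and 0.531% at T0 and 0.534% and 0.753% at T48, so the highest T0 and the lowest T48 value nearly touched.

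The difference was smaller among pairs listed at both times. There, the share of 20 to 50 kb went from 10.1% and 10.4% at T0 to 9.75% and 10.06% at T48. That is a log2 ratio of -0.051 and -0.048 within replicates 1 and 2, against -0.27 and -0.26 over all listed pairs. Pairs of at least 500 kb held 0.0213 percentage points more among the shared pairs. Over the same distances the composition of the list, which has no replicate error, differed by more than the strength of contacts measured at both times. Pairs that left or entered the list are not among the shared pairs. A smaller difference in strength was thus partly set by how the pairs were chosen, and nothing is concluded from it.

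**Figure D1:**
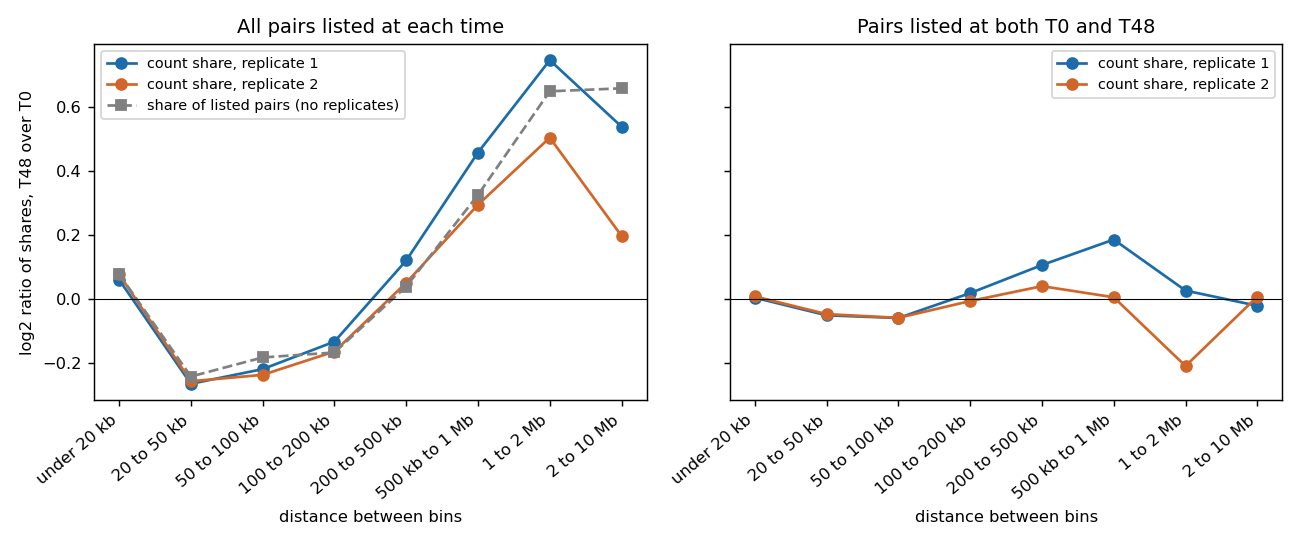
Log2 ratio of T48 over T0 (y axis) for the share of each distance class (x axis), with circles and lines for the count share in replicates 1 and 2 and grey squares for the share of listed pairs, which has no replicates. In all listed pairs (left) the classes from 20 to 200 kb lie below 0 and those from 500 kb lie above it, while in pairs listed at both times (right) the 20 to 50 kb class lies at -0.051 and -0.048.

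No 50 kb window and no single pair passed the main test for a change in count, which did not pair libraries by replicate number. The calls of a fit with that number as a block are given with the other alternatives at the end. Counts of shared pairs were summed per 50 kb window and tested with edgeR's quasi-likelihood test on the 4 libraries, where an adjusted p (Benjamini-Hochberg) under 0.05 was a call. Of 47,082 windows 0 were called (0.0%), with a lowest adjusted p of 0.0667, and 3,368 had an unadjusted p under 0.05 (7.15%). DESeq2 called 95 windows (0.202%), 18 higher (0.0382%) and 77 lower (0.164%). An edgeR fit over all 6 libraries, which used only pairs listed at all 3 times (46,759 windows), called 14 (0.0299%), 3 higher (0.00642%) and 11 lower (0.0235%). Of 610,857 single pairs 0 were called (0.0%), with a lowest adjusted p of 0.563, and 29,640 (4.85%) had an unadjusted p under 0.05. DESeq2 called 102 pairs (0.0167%). With median counts of 22 to 36 a pair, 0 calls of single pairs do not show that their contacts were alike.

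The replicates shared part of the change between windows. Over 46,697 windows with a mean count of at least 50, the log2 ratios of T48 over T0 within replicates 1 and 2 had a Pearson correlation of 0.268 across windows, which share their libraries and depth and are not replicates. They had the same sign in 62.4%. The central 95% of windows lay between -0.28 and 0.25 on the log2 scale, so the shared pairs of most 50 kb windows differed little in summed count. A log2 ratio of at least 0.5 in both replicates was seen in 48 windows (0.103%) and a ratio of at most -0.5 in 92 (0.197%), and 36 moved by this size in opposite directions. Windows chosen for a ratio of at most -0.5 in replicate 2 (n = 329) had a median of -0.20 in replicate 1, and 76.6% of them were below 0 there, against 48.7% of all windows. Losses chosen in replicate 1 (n = 538) had the same sign in replicate 2 in 65.6%, against 49.9% of all windows. Gains chosen in replicate 1 (n = 386) had it in 60.9%, against 50.1%, and gains chosen in replicate 2 (n = 346) in 64.7%, against 51.3%. The medians in the other replicate were -0.11, 0.066 and 0.080, so most of a change seen in either replicate alone was not repeated in the other.

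Windows with lower counts in both replicates mostly had fewer listed pairs too. The list and the counts come from the same reads, so the listed pairs are no independent evidence of a change. Of the 92 windows lower by at least 0.5, 72 had fewer listed pairs at T48 (78.3%), against 57.6% of the 46,697, and their median number of listed pairs was 94 at T0 and 50.5 at T48. Of the 48 higher windows 41 had more (85.4%, against 39.2%), with medians of 27.5 and 38. The higher windows rested on few contacts, since 36 of them (75.0%) summed under 10 shared pairs, against 34 (37.0%) of the lower ones and 21.1% of all windows. Chromosomes 1 and 14 held many of both kinds. Chromosome 1 has 8.15% of the windows and held 9 of the higher (18.8%) and 18 of the lower (19.6%), and chromosome 14 has 4.72% and held 11 (22.9%) and 18 (19.6%). The reads in shared pairs of chromosome 14 as a share of the autosomal count differed by a log2 of -0.063 and -0.034 in replicates 1 and 2, and those of chromosome 1 by -0.051 and 0.038.

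**Figure D2:**
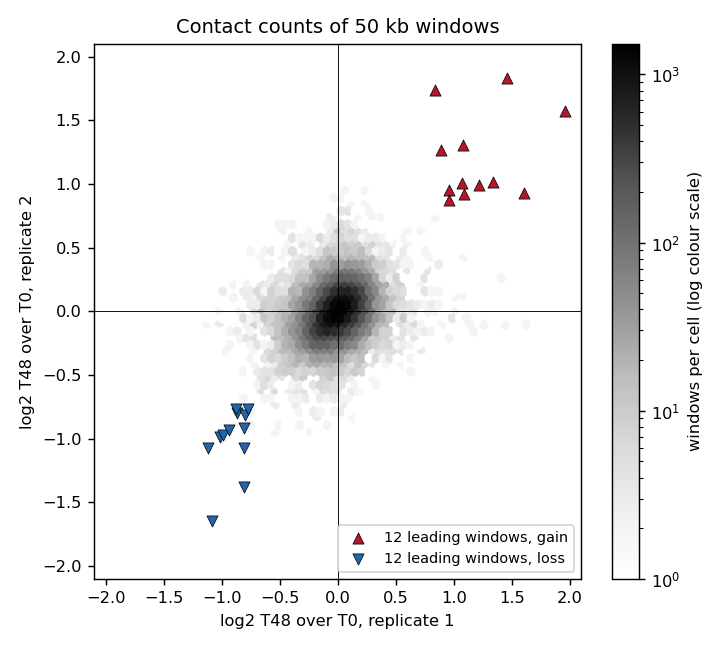
Log2 ratio of T48 over T0 of each 50 kb window in replicate 1 (x axis) and replicate 2 (y axis), with the number of windows in grey and the 12 leading gains (triangles up) and 12 leading losses (triangles down) on top. The cloud is centred on 0 with a correlation of 0.268, and the leading windows, chosen for their values in both replicates, lie at its ends.

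The leading losses rested on more pairs than the leading gains. For each direction 12 windows were named, ranked by the smaller of both within-replicate ratios, and values are given in CPM, the window's count scaled to its library's sum over all windows. A loss rested on a median of 30 pairs and a gain on 3.5, and 9 of the 12 gains and 4 of the 12 losses had under 10 pairs. Because the windows were chosen for their change, their values are a description. Gene names here mark regions placed on mm9 by hand from general knowledge and after values were seen. A name says that a window lies in the region around that gene, not that it overlaps the gene.

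On chromosome 8, the window chr8:114250001-114300000 had a CPM of 33.5 and 32.7 in the T0 libraries and 15.4 and 15.5 in the T48 libraries. The log2 ratio was -1.10 (SE 0.056, edgeR adjusted p = 0.0667), the strongest loss among windows with 10 or more pairs whose T0 replicates were alike. The list held 89 of its pairs at T0, 66 at T6 and 31 at T48, and those of at least 100 kb went from 20 to 1. The loss reached into its neighbours, where the ratios within replicates 1 and 2 were -0.64 and -0.60 on the left and -0.56 and -0.59 on the right (edgeR adjusted p = 0.124 and 0.111).

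The window chr6:122300001-122350000 lies to the side of the region that holds Nanog, Dppa3 and Gdf3, genes of the pluripotent state. Its CPM was 83.9 and 81.0 at T0 and 42.3 and 41.3 at T48 (log2 -0.98, SE 0.062, edgeR adjusted p = 0.0694). The replicates of each group were close to each other. Pairs of 20 kb or more within it differed by -0.89 and -0.78 in replicates 1 and 2, so the loss was not limited to adjacent bins. Listed pairs numbered 146, 134 and 74 at T0, T6 and T48. The loss reached into the next window away from the Nanog region, at -0.78 and -0.85 in replicates 1 and 2 (edgeR adjusted p = 0.0694). Toward that region it did not extend. The next windows there were at -0.14 and -0.03, then at -0.16 and -0.13 (edgeR adjusted p = 0.803 and 0.701).

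Around Sufu, which encodes a negative regulator of hedgehog signalling, the loss spanned 3 adjacent windows. The window chr19:46500001-46550000 had a CPM of 76.4 and 74.6 at T0 and 41.8 and 42.9 at T48 (log2 -0.84, SE 0.059, edgeR adjusted p = 0.0694). To its left the CPM went from 46.2 and 42.8 to 25.3 and 24.9, and to its right from 32.4 and 33.5 to 22.7 and 23.3. The central window had 166 listed pairs at T0, 68 at T6 and 73 at T48, so its list was already shorter at 6 h. The whole autosomal list was shorter at T6 as well, with 1,530,879 pairs against 1,812,521 at T0.

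Around En1, a homeobox gene of the midbrain and hindbrain, a window within the region and another to its side were lower. The side window chr1:122150001-122200000 went from 31.8 and 31.4 to 18.3 and 17.9 (log2 -0.80, SE 0.055, edgeR adjusted p = 0.0694), with 113 listed pairs at T0 and 37 at T48. In the region itself, chr1:122500001-122550000 went from 44.8 and 47.0 to 26.6 and 26.7 (log2 -0.78, edgeR adjusted p = 0.0694), with 237 and 109 listed pairs. Most windows between them lay near 0 in both replicates.

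Around Pknox2, which encodes a TALE homeodomain factor that pairs with PBX proteins, chr9:36800001-36850000 went from 41.6 and 43.9 to 24.4 and 25.8 (log2 -0.77, SE 0.061, edgeR adjusted p = 0.0824). The region of 300 kb as a whole differed by -0.12 and -0.11 only. The unnamed windows chr1:133850001-133900000 (84.9 and 83.2 to 46.2 and 48.8) and chr11:55200001-55250000 (68.0 and 81.2 to 38.9 and 38.6) were not called either, with edgeR adjusted p = 0.0824 and 0.124. The first of them rested on 83 pairs and the second on 46.

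For 4 of the 12 losses the raw T0 count of replicate 2 exceeded that of replicate 1, although its library was smaller. They lay at chr4:145150001-145200000 and chr4:147000001-147050000, in the zinc finger gene cluster of distal chromosome 4, at chr2:98500001-98550000 and at chr13:66800001-66850000. The first had a CPM of 87.2 and 171 at T0 and 43.1 and 86.4 at T48, so that T0 replicate 1 and T48 replicate 2 were nearly alike. The window of chromosome 2 had 709 and 2,209 at T0 and 370 and 1,158 at T48, and the groups overlapped. Its ratios within replicates were -0.94 and -0.93, but without T0 replicate 2 the fitted ratio turned to 0.11. On the same omission the windows of chromosome 4 from 147000001 and of chromosome 13 turned to 0.82 and 0.42.

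Among the 12 gains, a window around Plxna2 rested on the most pairs and had the lowest adjusted p. This window, chr1:196500001-196550000, had a CPM of 32.6 and 32.8 at T0 and 63.3 and 63.6 at T48 (log2 0.96, SE 0.053, edgeR adjusted p = 0.0667). The replicates of each group were nearly equal, and 36 pairs carried the sum. The list held 63 of its pairs at T0, 63 at T6 and 172 at T48, and those of at least 100 kb went from 12 to 93. The next window to the right went the opposite way in the replicates, from 50.8 to 34.1 in replicate 1 and from 37.3 to 73.1 in replicate 2. The pair of bins centred on 196592500 and 196602500 had 146 and 32 read pairs at T0 and 44 and 180 at T48, again with opposite changes. Over the whole region of 300 kb the log2 ratio was 0.06 in replicate 1 and 0.70 in replicate 2, so a gain of the region as a whole was not shared by the replicates.

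Further gains with 10 or more pairs were also on chromosome 1. The window chr1:19800001-19850000 went from 13.7 and 11.3 to 29.1 and 27.9 (log2 1.18, SE 0.10, edgeR adjusted p = 0.0863), with 25, 17 and 121 listed pairs at T0, T6 and T48. In chr1:170750001-170800000 the CPM was 12.4 and 12.6 at T0 and 26.0 and 25.3 at T48 (log2 1.04, SE 0.065, edgeR adjusted p = 0.0694), with 30, 27 and 136 listed pairs. In both, listed pairs of 100 to 500 kb increased most, from 8 to 58 and from 8 to 64. Of the 12 gains, 4 lay on chromosome 1 and 4 on chromosome 14. In 2 of the small ones the sign turned with the pairs that were counted, on chromosome 13 from 10850001 (3 pairs; -0.02 with pairs of at least 20 kb) and on chromosome 14 from 108200001 (4 pairs; -0.10 with these and -0.34 in a stricter list).

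**Figure D3:**
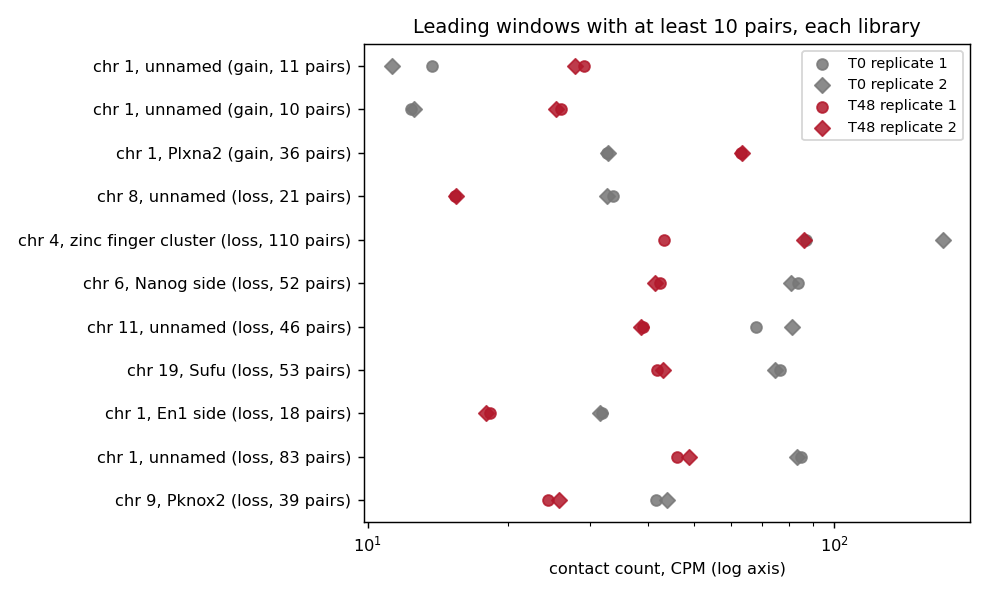
Contact count in CPM on a log axis (x) for the leading windows with at least 10 pairs (rows), with grey for T0, red for T48, circles for replicate 1 and diamonds for replicate 2. "Side" marks a window beside the region named. The windows were chosen for their change, so a gap between T0 and T48 points is no separate result. In the row of the zinc finger cluster T0 replicate 1 (87.2) and T48 replicate 2 (86.4) nearly touch.

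**Figure D4:**
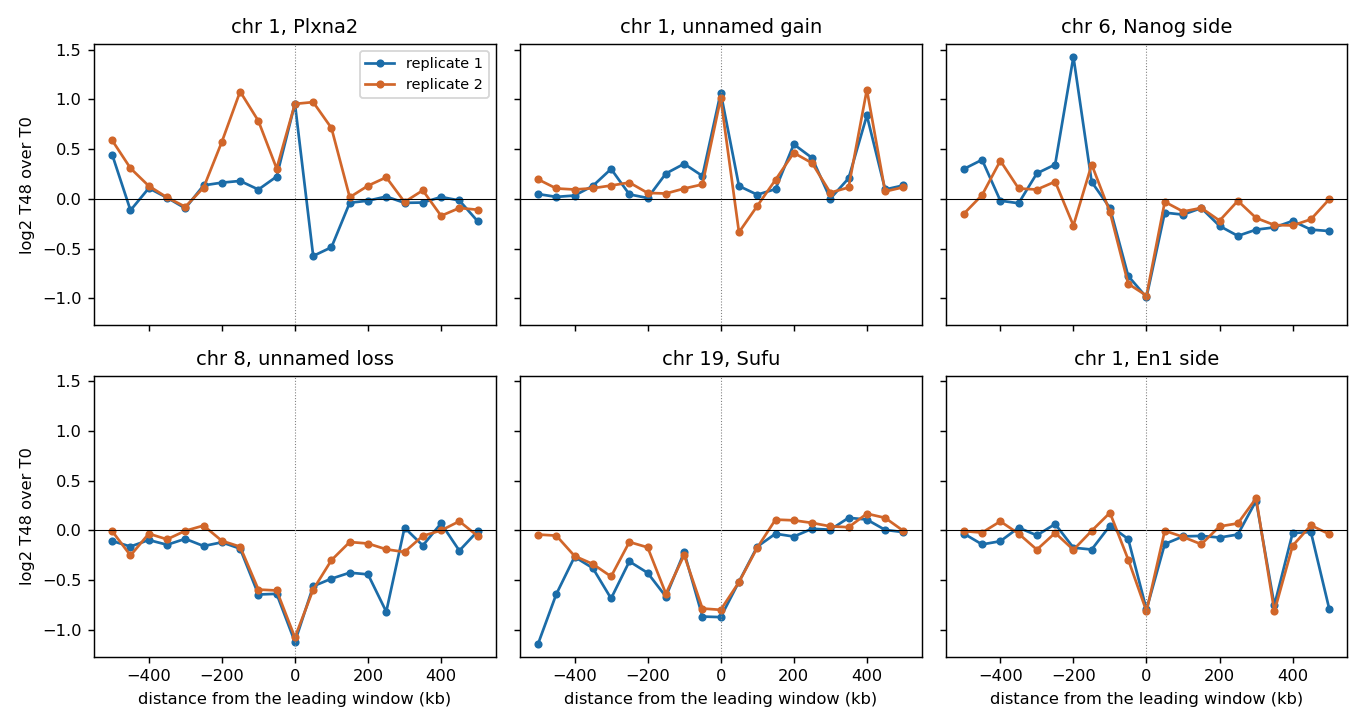
Log2 ratio of T48 over T0 (y axis) in windows of 50 kb up to 500 kb to either side of 6 leading windows (x axis, kb), in replicates 1 and 2. The loss at Sufu spans several windows, that beside En1 is a single window with another 350 kb away, and right of the Plxna2 window the replicates part, at -0.57 and 0.97.

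Single pairs of at least 20 kb differed most at some of the same loci. The largest loss joined bins 60 kb apart around Sufu, chr19:46470001-46475000 and chr19:46530001-46535000, with 115 and 72 read pairs at T0 and 15 and 8 at T48 (log2 -2.93, SE 0.24, edgeR adjusted p = 0.563). Around Trim2, which encodes an E3 ubiquitin ligase of neurons, bins 70 kb apart at chr3:84035001-84040000 and chr3:84105001-84110000 had 67 and 39 at T0 and 15 and 10 at T48. A pair 30 kb apart on chromosome 9, centred on 42987500 and 43017500, went from 89 and 46 to 16 and 11. On chromosome 1, bins 120 kb apart centred on 133887500 and 134007500, which start in the window of the leading loss there, went from 65 and 42 to 14 and 10. These pairs were chosen for their change in both replicates, and none was called.

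The gains among pairs were smaller in count. On chromosome 1 the bins centred on 170972500 and 170997500, 25 kb apart, had 42 and 31 read pairs at T0 and 124 and 86 at T48 (log2 1.60, SE 0.21, edgeR adjusted p = 0.563). Another pair of chromosome 1, centred on 129247500 and 129267500, went from 22 and 13 to 69 and 43. Inside the Plxna2 window the bins centred on 196512500 and 196522500, 10 kb apart, had 45 and 28 at T0 and 315 and 174 at T48. This pair is under 20 kb, outside the rule for named pairs, and was chosen after its values were seen.

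Among pairs of 20 to 50 kb with a mean count of at least 30, losses were more frequent than gains. Over all distances 3,964 pairs of that count (1.09%) were higher by a log2 of at least 0.5 in both replicates and 4,513 (1.24%) lower. Of 8,892 such pairs of 20 to 50 kb, 594 were lower by this size in both replicates, 112 were higher, and 317 moved by it in opposite directions. Under 20 kb the numbers were 3,632, 3,764 and 4,057 of 351,460, with no such lean. Pairs of 50 to 100 kb were again more often lower, at 106 against 22 of 1,276. The within-replicate ratios of pairs correlated at 0.125 across 363,834 pairs, which share their libraries, against 0.268 for windows.

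In the counts of shared pairs, regions of genes known in this differentiation mostly differed little, and a few pluripotency loci were lower. The 35 regions of 200 to 500 kb were set against 11,882 tiles of 200 kb, of which the central 95% lay between -0.21 and 0.16 on the log2 scale, with a median of 0.01. Most counts come from pairs under 20 kb, and with only pairs at least 20 kb apart, an alternative added after the values were seen, 20 of the 31 regions with 1 direction in both replicates kept it, 3 turned in both and 8 had mixed signs. Of these tiles 36.7% were higher in both replicates and 32.5% lower. None of the 164 windows in the regions was called by the main fit (0.0% of all windows). The fit with a replicate block called some of them, as given at the end. Some regions, among them Plxna2, En1, Pknox2, Prox1, Sufu, Trim2, Cry2 and Nr5a2, were on the list because earlier results of these data had shown a change there, so their direction is no independent evidence.

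Among 9 pluripotency regions, 5 were lower in both replicates and 2 higher. The CPM of a region is scaled to its library's sum over shared pairs, not over windows, and cannot be set against the CPM of a window. Around Pou5f1 the summed CPM of the region was 117.8 and 116.1 at T0 and 97.35 and 94.84 at T48, a log2 ratio of -0.28 and -0.29. Around Lefty1 and Lefty2, inhibitors of Nodal signalling that are expressed in pluripotent cells, it was 275.8 and 324.6 at T0 and 226.0 and 256.4 at T48, or -0.29 and -0.34. The region of Nanog, Dppa3 and Gdf3 went from 196.3 and 194.4 to 166.4 and 169.4, or -0.24 and -0.20. These 3 lay below the central 95% of tiles, and their T0 and T48 libraries did not overlap, as was the case, with T48 lower, in 2,261 of the 11,882 tiles (19%). With only pairs at least 20 kb apart the ratios were -0.18 and -0.19, -0.30 and -0.31, and -0.28 and -0.16, in the same order. The listed pairs of the regions numbered 189, 480 and 332 at T0 and 137, 317 and 224 at T48.

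Other regions of the network lay nearer to 0. Sall4, a zinc finger factor of stem cells, differed by -0.14 and -0.12, and Nr5a2, a nuclear receptor that can replace OCT4 in reprogramming, by -0.09 and -0.11. Sox2, which acts in both stem cells and neural progenitors, was at 0.10 and 0.04, Klf4 at 0.10 and 0.10, and Esrrb within 0.01 of 0 in either replicate. Klf4 turned to -0.07 and -0.09 with pairs at least 20 kb apart. With all pairs these regions lay within the range of most tiles. Within the Nr5a2 region 1 window, chr1:138800001-138850000, went from 22.8 and 24.8 to 16.9 and 17.9 CPM (edgeR adjusted p = 0.417), and its listed pairs from 161 to 64.

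The 4 Hox clusters, which retinoic acid activates in embryonal carcinoma cells, were all higher in both replicates but by little, and HoxC no longer was with pairs at least 20 kb apart (0.05 and -0.01). HoxA differed by 0.16 and 0.05, HoxB by 0.11 and 0.07, HoxC by 0.02 and 0.01 and HoxD by 0.09 and 0.08, all with mean ratios inside the range of most tiles. In 3 of the clusters the list grew, from 570 to 647 pairs at HoxA, from 696 to 785 at HoxB and from 621 to 739 at HoxD, and it went from 607 to 553 at HoxC. At HoxD listed pairs of at least 500 kb went from 188 to 255 and at HoxA from 108 to 158, ratios of 1.36 and 1.46, where all autosomes had 1.26. Those of 20 to 100 kb went from 75 to 66 and from 143 to 96, ratios of 0.88 and 0.671, against 0.818 over all autosomes. In these 2 ranges HoxB had ratios of 1.64 (28 to 46 pairs) and 0.747. HoxC had 1.00 (4 to 4 pairs) and 0.832. The list as a whole thus moved the same way in both ranges, and no difference of these clusters from it was tested. Pairs of 100 to 500 kb had ratios of 1.23 at HoxD, 1.32 at HoxA and 1.35 at HoxB, against 0.923 over all autosomes. HoxC did not share this rise, at 0.964 (309 to 298 pairs), and these ratios again have no replicate error.

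Regions of the retinoic acid pathway lay between -0.16 and 0.17. The highest was Dhrs3, which encodes an enzyme that reduces retinaldehyde and limits retinoic acid, with a CPM of 144.6 and 146.2 at T0 and 162.2 and 160.6 at T48 (log2 0.17 and 0.14). Cyp26a1 and Cyp26c1, which encode the cytochromes that degrade retinoic acid, were at 0.09 and 0.08. Rarb and Rara, which encode its receptors, were at -0.02 and -0.09 and at -0.03 and -0.02. The lowest was the region of Crabp2, a retinoic acid carrier, and the neighbouring neural progenitor gene Nes, at -0.16 and -0.11. Meis1, a Hox cofactor, was at 0.09 and 0.15, and Nrip1, a corepressor of nuclear receptors, at -0.03 and -0.06. In 5 of these 7 regions the shared sign was lost or turned with longer pairs alone. With pairs at least 20 kb apart Meis1 turned to -0.31 and -0.37 and Rarb to 0.09 and 0.07, while Cyp26a1 and Cyp26c1, Rara and Nrip1 had opposite signs in the replicates. Dhrs3 (0.18 and 0.15) and Crabp2 with Nes (-0.14 and -0.11) kept their direction.

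Of the neural genes, the region of the eye and forebrain factor Pax6 was at 0.14 and 0.09, and that of Otx2, of the anterior brain, at -0.11 and -0.20. Sox1 and the Olig1 and Olig2 region lay within 0.03 of 0. Prox1 had -0.18 in replicate 1 and 0.04 in replicate 2, so no direction was shared. Among endoderm and mesoderm genes, Gata6 was at 0.14 and 0.11, Foxa2 at 0.11 and 0.07, Sox17 at 0.08 and 0.04, and Gata4 at -0.11 and -0.09. Pairs at least 20 kb apart gave opposite signs in the replicates for Pax6 (0.23 and -0.05) and Gata4 (0.02 and -0.03).

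The lowest regions were named for their loss and are given as values. The Sufu region went from 199.1 and 200.8 to 132.9 and 134.9 CPM (log2 -0.58 and -0.57). The Trim2 region differed by -0.30 and -0.32 and that of Cry2, a repressor of the circadian clock, by -0.30 and -0.24. In all 3 the listed pairs of 20 to 500 kb were fewer at T48, and the list of the Sufu region went from 412 to 185. Inside the Cry2 region the window chr2:92250001-92300000 went from 59.1 and 59.3 to 36.6 and 38.6 CPM (log2 -0.66, edgeR adjusted p = 0.0863). Inside the Trim2 region the window chr3:84100001-84150000 went from 56.3 and 60.2 to 35.6 and 35.1 (log2 -0.72, edgeR adjusted p = 0.0857).

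**Figure D5:**
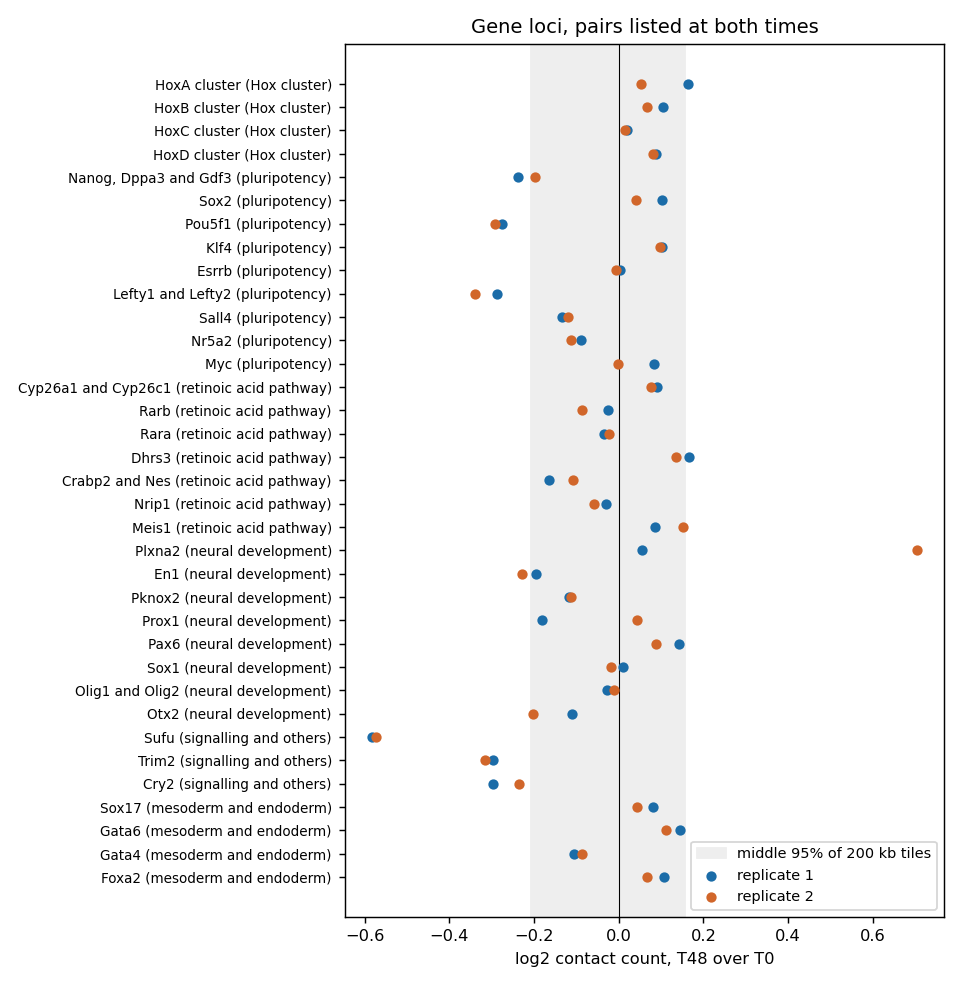
Log2 ratio of T48 over T0 of the summed contact count (x axis) for 35 gene regions (rows, grouped by role), with a point for each replicate and a grey band for the central 95% of 200 kb tiles, -0.21 to 0.16. Pou5f1, Lefty1 and Lefty2, Sufu, Trim2 and Cry2 lie left of the band in both replicates, the Hox clusters lie just right of 0, and the points of Plxna2 are far apart at 0.06 and 0.70.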

How the data were processed

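Hi-C read pairs were counted in 6 libraries of P19 cells, 4 of which (T0 and T48) were compared. Per the labels' protocols, fixed chromatin was digested, filled in with a biotinylated nucleotide, ligated and pulled down on streptavidin. Per the submitters' processing notes, CASAVA 1.8.2, Bowtie2 and mm9 were used. The enzyme, the interaction caller with its threshold and any coverage correction are not given in the sources used here. Per library, the file deposited by the authors holds a raw count for each pair of 5 kb bins, per the file headers.

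Sample titles gave each library's group and replicate number. The 210,990 pairs of chromosome X and 4 of the mitochondrial chromosome were left out. Pairs listed at both T0 and T48 were summed per 50 kb window, a pair with both bins in 1 window counted once, and tested with edgeR 4.0.16 in R 4.3.3 (TMM, filterByExpr, quasi-likelihood F test, two-sided, Benjamini-Hochberg at 0.05, no block). Within-replicate log2 ratios used the same TMM scaling. Named windows were the 12 largest gains and 12 largest losses by the smaller within-replicate ratio with the same sign in both, mean count at least 50, 1 per 1 Mb, plus all windows called; named pairs were the 6 and 6 largest at 20 kb or more with a mean count of at least 30. Alternatives were DESeq2 1.42.0, its size factors, no filter, a replicate block, all 6 libraries, offsets per distance class, other windows, pairs of at least 20 kb, a stricter list (1.5 times the lowest listed count) and leaving out each library. The fits were tested on simulated data. Intervals cover counting error over listed pairs only, since the list has no replicates. Read pairs carry no molecular identifiers.

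The comparison, the gene regions and the window size were chosen with earlier results of these data known. Regions were placed on mm9 by hand from general knowledge after the ranked windows had been seen, and their chromosomes were checked against RefSeq. The planned gene list comparison was not made because it needs an mm9 annotation, which was not used here.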

Additional observations from a re-analysis of the deposited data

How the results depend on the processing

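The 0 calls of windows and pairs held in edgeR with DESeq2 size factors, with no filter and without any 1 library (0 to 0 calls); windows also stayed at 0 with 100 kb windows, with pairs of at least 20 kb, in the stricter list and with pairs counted once per bin, and pairs with all 6 libraries and with distance offsets. Calls appeared in DESeq2, in 95 of 47,082 windows and 102 of 610,857 pairs, and with all 6 libraries, in 14 of 46,759 windows. They also appeared with offsets per distance class (3 of 47,082 windows) and with 25 kb windows (11 of 91,709). With the replicate number as a block, 287 of 47,082 windows (45 higher, 242 lower) and 1 of 610,857 pairs were called. Of the 164 windows in the gene regions this fit called 14, with 13 lower and 1 higher. Among them 7 lay around Sufu, Trim2 and Cry2 and 3 around Plxna2, En1 and Pknox2, regions listed for an earlier change. Another 4, all lower, lay in pluripotency regions, with 1 at Pou5f1, 2 at Lefty1 and Lefty2 and 1 at Nr5a2, itself listed for an earlier change. With all 6 libraries and the block, 305 of 46,759 windows and 4 of 477,017 pairs were called. The labels give no common origin of same-numbered libraries. Across 46,697 windows the difference between replicates at T0 correlated with that at T48 at 0.711, and 2 pairs of libraries cannot settle whether the numbers pair them.

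The gain in the count share of pairs of at least 500 kb, 0.824 percentage points, was 0.0213 among pairs listed at both times, 0.378 in the stricter list and 0.275 for pairs of at least 1 Mb. The gain in the share of listed pairs, 3.61, was 2.61 in the stricter list and 1.40 for at least 1 Mb. Among 24 named windows 6 of 323 alternative values turned sign, and among 12 named pairs 0 of 113. Without T0 replicate 2, the losses on chromosome 4 from 147000001, chromosome 2 from 98500001 and chromosome 13 from 66800001 turned to 0.82, 0.11 and 0.42, the highest values without any 1 library, with lowest values of -3.49, -1.98 and -2.51 without T48 replicate 2. With pairs of at least 20 kb the gains on chromosome 13 from 10850001 and chromosome 14 from 108200001 were -0.021 and -0.10, and the latter was -0.34 in the stricter list. Counting only pairs at least 20 kb apart in the gene regions was added after seeing the data, and 20 of 31 regions with 1 direction in both replicates kept it, 3 (Klf4, Rarb and Meis1) turned and 8 became mixed. The cause was not tested. The planned comparison of gene list windows was not run. Counts limit single pairs most, since their median was 22 to 36.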
